A study of Mus musculus with 10 samples.

Results

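Calcitonin gene-related peptide (CGRP) was described through 7 genes whose symbols are Calca, Calcb, Calcrl, Ramp1, Ramp2, Ramp3 and Crcp, of 51912 genes in the count files. The members were taken by symbol, and the set was chosen by the genotype difference of Calca in earlier results of these data. Every genotype difference of a member is therefore given here as a description with its error, and no p-value is printed for it. Where members past a p threshold for genotype are counted, the number or share of all genes stands beside, and nothing is read from the count. Motor neurons had been cut by laser from frozen lumbar spinal cord of 10 mice, about 50 cells a mouse, and each pool gave 1 Smart-seq2 library. The groups were 5 HSA-NRTN mice, in which the promoter of human skeletal actin drives the neurotrophic factor neurturin in muscle, and 5 wild-type littermates. Each group held 3 females and 2 males, and the labels name neither age nor strain. The transgene acts in muscle, outside the captured cells, and cells below a size minimum or without a visible nucleolus were not captured. The question, from the title of the study, was whether muscle neurturin is tied to a slow motor neuron identity.

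CGRP is a peptide that motor neurons store in dense core vesicles and can release at the neuromuscular junction, where it raises cAMP in muscle and acts on acetylcholine receptors. Calca and Calcb encode its alpha and beta forms, and Calca transcripts can instead be spliced to encode calcitonin. The receptor is a complex of Calcrl, a G protein-coupled receptor, with the single-pass partner Ramp1. With Ramp2 or Ramp3 the same Calcrl protein becomes an adrenomedullin receptor. Crcp is a small intracellular protein that couples the receptor to its G protein and is also a subunit of RNA polymerase III.

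Calca (ENSMUSG00000030669) lies on chromosome 7 of GRCm38 from 114631478 to 114636357 on the minus strand, and Calcb (ENSMUSG00000030666) from 114718643 to 114723365 on the plus strand, 82.3 kb away. The stretch that codes for the mature peptide is printed for both genes because it shows how near the paralogs are, and so how far reads can tell them apart. It has 111 bases for 37 codons and lies in exon 4 of 5 of Calca-201, at chr7:114632470-114632580 on the minus strand, and of Calcb-201, at chr7:114721994-114722104 on the plus strand (GENCODE M21). Capitals mark the bases that differ.
Calca: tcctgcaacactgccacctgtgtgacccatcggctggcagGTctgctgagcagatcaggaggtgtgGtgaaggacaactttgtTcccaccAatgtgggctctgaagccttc
Calcb: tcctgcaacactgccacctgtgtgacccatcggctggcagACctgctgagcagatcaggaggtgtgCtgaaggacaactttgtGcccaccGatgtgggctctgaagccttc

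The stretches differ at 5 of 111 bases, in 4 of 37 codons, and 3 of those codons encode another residue. The longest run identical in any pair of their transcripts was 61 bases. Of all windows of 50 bases, 12 were shared, which is 0.715% of those of Calca and 0.952% of those of Calcb. The labels state no read length. Of 7 annotated Calca transcripts 2 code for mature CGRP, 2 for mature calcitonin and 3 for neither, and counts per gene do not separate them.

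The promoter of Calca is printed because Calca carried the widest genotype difference among the tested members, and that of Ramp1 because its level went the other way. The RefSeq table on GRCm38.p6 held promoters for 4 of the 7 members, not for Calcb, Ramp2 or Crcp, and the 250 bases before the start site are shown. Capitals mark the core of the cAMP response element (TGACG), the E-box (CANNTG) and the CCAAT box (CCAAT), each searched on both strands.
Calca, chr7:114636358-114636607, minus strand: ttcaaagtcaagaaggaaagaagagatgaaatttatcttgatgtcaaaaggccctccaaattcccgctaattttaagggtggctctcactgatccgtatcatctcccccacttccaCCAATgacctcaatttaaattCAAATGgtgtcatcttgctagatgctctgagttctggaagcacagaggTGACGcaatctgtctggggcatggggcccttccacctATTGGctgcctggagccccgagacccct
Ramp1, chr1:91179572-91179821, plus strand: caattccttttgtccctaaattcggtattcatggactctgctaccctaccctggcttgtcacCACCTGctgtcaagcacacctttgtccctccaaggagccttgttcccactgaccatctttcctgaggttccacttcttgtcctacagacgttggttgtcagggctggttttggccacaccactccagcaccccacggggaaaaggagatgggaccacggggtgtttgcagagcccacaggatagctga

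The Calca window held 1 TGACG, beginning 65 bases before the start, 1 E-box at 113 and 2 CCAAT boxes at 134 and 28. TGACG occurred in 17.8%, CANNTG in 66.2% and CCAAT in 33.8% of 32851 mouse promoter windows of the same length. The Ramp1 window held 1 E-box, at 188, and neither of the others. These are matches of letters and say nothing of binding.

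Both peptide genes were abundant in these motor neurons, while the receptor gene was near the limit of detection. Levels are CPM, the counts scaled to library size after TMM scaling, and to compare genes they were divided by exon length (CPM per kb). Calca stood at 2184 ± 870.5 CPM per kb in wild-type pools (SD, n = 5), rank 13 of 11613 tested genes with an annotated length, and at 676 ± 340.1 CPM per kb in HSA-NRTN pools, rank 50. Calcb stood at 636 ± 284 CPM per kb in wild-type, rank 55, and at 329 ± 108 CPM per kb in HSA-NRTN pools, rank 135. Calca lay above Calcb and Calcb above every receptor-side gene in each of the 10 libraries.

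The order below the peptides was less clear. In wild-type pools Crcp was at 21.7 ± 16.1, Ramp2 at 13.2 ± 9.72 and Ramp1 at 5.88 ± 2.18 CPM per kb (SD, n = 5). Crcp exceeded Ramp2 in 4 of 5 wild-type libraries and Ramp2 exceeded Ramp1 in 3 of 5, so these neighbours did not differ beyond their spread. In HSA-NRTN pools the order of the Ramp genes turned, with Ramp1 at 13.2 ± 6.003 and Ramp2 at 4.81 ± 4.10 CPM per kb, and Ramp1 lay above Ramp2 in 4 of 5 libraries. Calcrl, at 0.322 ± 0.438 CPM per kb in wild-type and 0.380 ± 0.284 in HSA-NRTN pools, and Ramp3 were the lowest members.

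**Figure D1:**
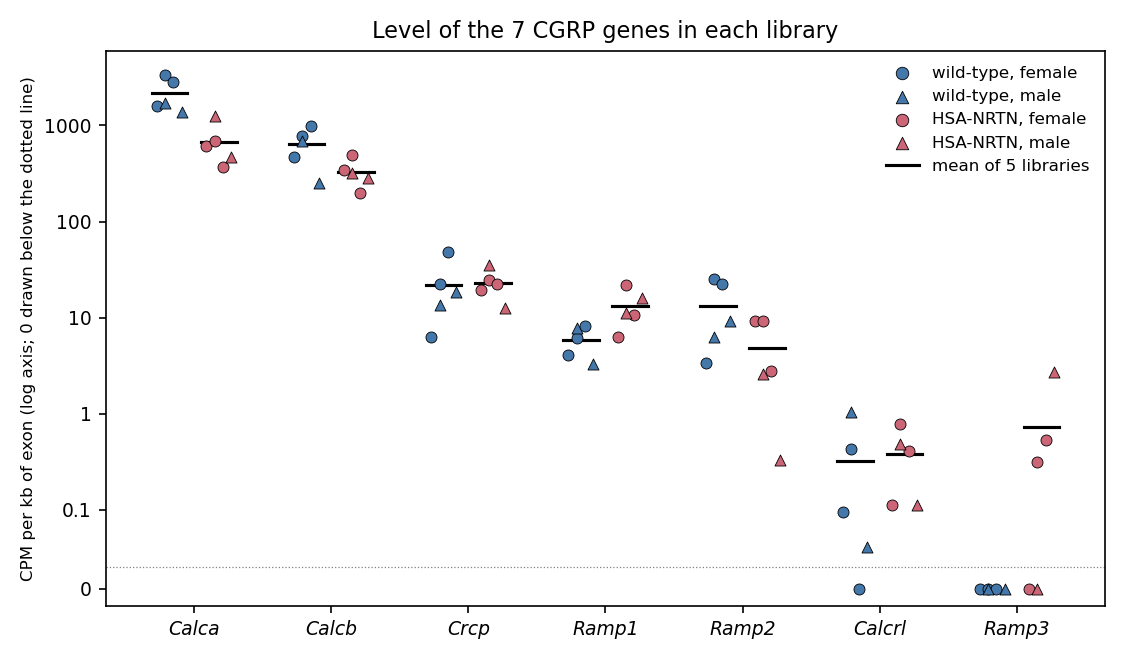
Level of each member in every library in CPM per kb of exon on a log axis, with zeros drawn below the dotted line; circles are females, triangles males, and black bars the mean of 5 libraries. Calca and Calcb lie far above the receptor-side genes in all 10 libraries, and Calcrl and Ramp3 lie lowest.

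Calca was lower in every HSA-NRTN library than in any wild-type library. In wild-type replicates 1 to 5 Calca was at 2694, 2915, 5649, 4815 and 2311 CPM. In HSA-NRTN replicates 1 to 5 it was at 2089.6, 783, 1039, 1159.6 and 618 CPM. The nearest values of the groups were the 2089.6 CPM of HSA-NRTN replicate 1 and the 2311 CPM of wild-type replicate 5. The group means were 1138 ± 573 and 3677 ± 1466 CPM (SD, n = 5 each), a wild-type level 3.23-fold that of HSA-NRTN pools, and the log2 fold change was -1.69 (SE 0.34). Without HSA-NRTN replicate 1 it was -2.03. In bulk pools fewer cells of a type and less RNA per cell cannot be told apart.

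Calcb was also lower on average, with overlapping groups. It was at 595, 877, 979.7, 1251.9 and 318 CPM in wild-type replicates 1 to 5. In HSA-NRTN replicates 1 to 5 it was at 405, 358, 439, 624.5 and 250.03 CPM. All 5 HSA-NRTN libraries lay below the wild-type median of 877 CPM, but 4 of them lay above wild-type replicate 5. Its log2 fold change was -0.95 (SE 0.33), and the wild-type mean was 1.94-fold the HSA-NRTN mean.

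The share of Calca in the counts of both peptide genes was 81.9%, 76.9%, 85.2%, 79.4% and 87.9% in wild-type replicates 1 to 5. In HSA-NRTN replicates 1 to 5 it was 83.8%, 68.6%, 70.3%, 65.0% and 71.2%. In 4 of the 5 HSA-NRTN libraries the share was under the lowest wild-type share, and HSA-NRTN replicate 1, the one with the highest Calca of its group, lay inside the wild-type range. The group means were 82.3% ± 4.42 and 71.8% ± 7.11 (SD, n = 5 each). The summed level of both genes was 4482 ± 1764 CPM in the wild-type group and 1553 ± 629 CPM in the other.

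**Figure D2:**
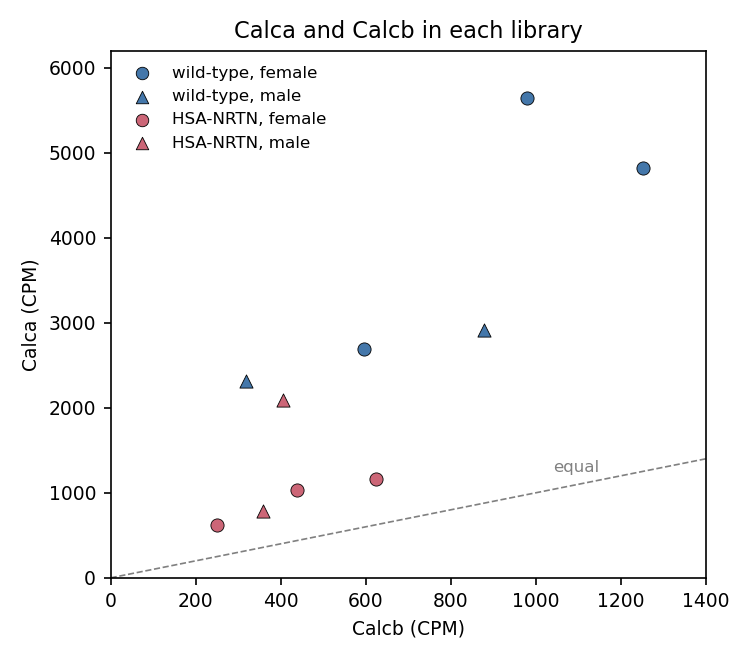
Calca against Calcb in CPM, 1 point a library, coloured by genotype and shaped by sex, with a dashed line of equal levels. All points lie above the line, and the 5 HSA-NRTN libraries lie at 618 to 2089.6 CPM of Calca, below the wild-type range of 2311 to 5649 CPM.

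Ramp1 (chromosome 1, 91179822 to 91225196), the partner of Calcrl in the CGRP receptor, was higher in HSA-NRTN pools. It was at 12.4, 23.5, 18.3, 24.8 and 9.92 CPM in wild-type replicates 1 to 5. In HSA-NRTN replicates 1 to 5 it was at 33.8, 48.6, 18.9, 66.4 and 32.3 CPM. In 4 of the 5 HSA-NRTN libraries Ramp1 exceeded the highest wild-type value, and HSA-NRTN replicate 3 lay inside the wild-type range. The means were 40.0 ± 18.1 and 17.8 ± 6.58 CPM (SD, n = 5 each), a 2.25-fold difference with a log2 fold change of 1.17 (SE 0.41). So the ligand genes and this partner gene differed in opposite directions. Summed astrocyte markers followed Ramp1 within the genotype groups (r = 0.71 over 10 libraries after removing group means, a description). All 8 of those markers had counts in both groups, with sums of 966 to 1476 CPM in the wild-type group and 1200.1 to 2026 CPM in the other, and their part in the Ramp1 difference was not tested.

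Ramp2 (chromosome 11, 101246028 to 101259546), the adrenomedullin receptor partner, was lower on average and varied widely. It was at 11.02, 20.96, 82.3, 72.98 and 30.1 CPM in wild-type replicates 1 to 5. In HSA-NRTN replicates 1 to 5 it was at 8.60, 1.08, 30.4, 30.2 and 9.12 CPM. Here 3 HSA-NRTN values were under the lowest wild-type value, and the others lay inside the wild-type range. The log2 fold change was -1.42 (SE 0.68). Of its 3301 exonic bases 1103 are shared with Vps25 on the same strand. Vps25 had 33 counts over the HSA-NRTN and 26 over the wild-type libraries, against 446 and 1049 for Ramp2. Reads on shared bases can fall to the tally of ambiguous reads, which stayed out of these counts. So the counts of Vps25 do not show how much of its RNA was present, and the level of Ramp2 per kb may be too low.

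Ramp2 followed the number of genes detected in a library. With group means removed, its log2 CPM had r = 0.92 (rho 0.90) with genes detected, 0.78 with log2 gene counts and -0.86 with the share of reads not aligned, all over the same 10 libraries and so sharing depth. With genes detected as the covariate, a setting chosen after seeing the data, the genotype log2 fold change of Ramp2 was -2.76 (SE 0.46) in place of -1.42. Ramp2 is known to be high in vessel cells, so endothelial markers were examined. All 12 had counts in wild-type and 10 in HSA-NRTN pools, where Cldn5 and Cdh5 were at 0, with sums of 23.8 to 44.6 CPM and 40.3 to 67.6 CPM. Within groups their sum had r = -0.41 with Ramp2, and 2 of the 12 passed the count filter. The summed oligodendrocyte markers had r = -0.87 (rho -0.65) with Ramp2 within groups, and those of pericytes and smooth muscle -0.64. The part of these cell types in the Ramp2 difference was not tested.

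**Figure D3:**
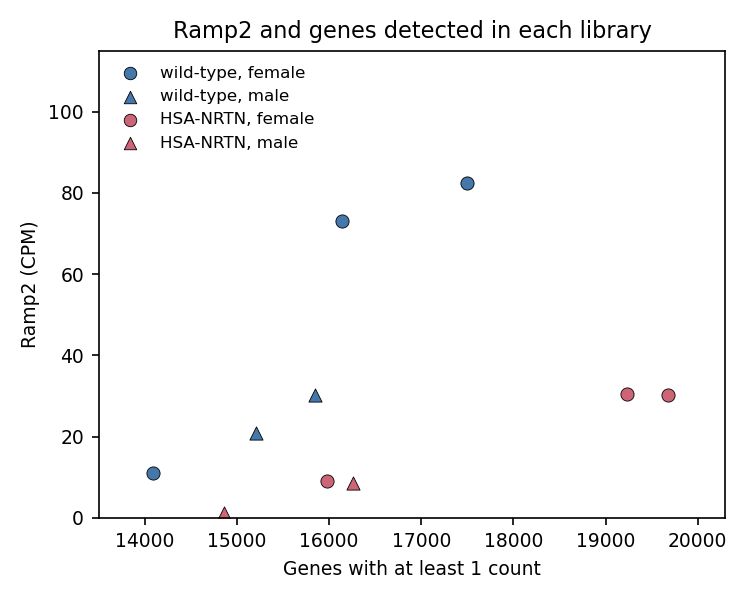
Ramp2 in CPM against the number of genes with at least 1 count, 1 point a library, coloured by genotype and shaped by sex. Within each genotype Ramp2 tends to be higher where more genes were detected, though not in strict order in HSA-NRTN pools, and it runs from 1.08 to 30.4 CPM in HSA-NRTN and from 11.02 to 82.3 CPM in wild-type pools.

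Crcp (chromosome 5, 130029290 to 130060789) showed no clear difference. It was at 9.87, 21.5, 35.2, 76.8 and 29.0 CPM in wild-type replicates 1 to 5. In HSA-NRTN replicates 1 to 5 it was at 56.3, 19.996, 30.8, 39.3 and 35.5 CPM, within the wild-type range. The log2 fold change was 0.08 (SE 0.47), and it was 0.61 without wild-type replicate 4, the library with the highest level.

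Calcrl (chromosome 2, 84330626 to 84425411), the receptor itself, had 2, 18, 9, 0 and 1 counts in wild-type and 8, 1, 3, 27 and 8 counts in HSA-NRTN replicates 1 to 5. Its mean was 1.57 ± 2.14 CPM in the wild-type and 1.86 ± 1.39 CPM in the HSA-NRTN group (SD, n = 5 each), a gap smaller than either SD. At this depth no difference was detectable.

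Ramp3 (chromosome 11, 6658521 to 6677475) had 0 counts in all 5 wild-type libraries and 0, 7, 0, 3 and 3 counts in HSA-NRTN replicates 1 to 5. A count of 0 allows up to 0.130 CPM over the wild-type group, taking 3 counts as the limit. The level pooled over the HSA-NRTN group was 0.598 CPM, 4.58-fold that limit. This ratio leaves out the counting error of the 13 HSA-NRTN counts. With the error of both groups, the lower end of the 95% interval of the pooled ratio was 3.22. HSA-NRTN replicate 2 held 7 of the 13 counts. Without it the pooled level was 2.31-fold the wild-type limit, again leaving out the error of the HSA-NRTN counts. These values take in no more than counting error, and amplified reads that carry no molecular identifier are not independent molecules. Of its exonic bases 101 are shared with Gm11978 on the opposite strand, and the library type does not mark strand. Calcrl and Ramp3 did not reach the count filter and were not tested.

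**Figure D4:**
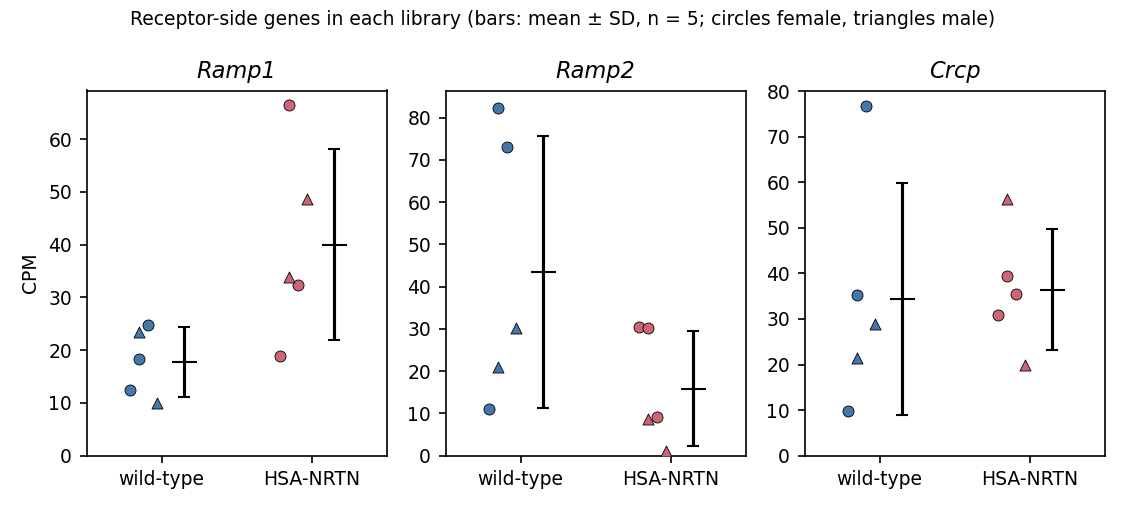
Ramp1, Ramp2 and Crcp in CPM in each library by genotype, with mean ± SD of 5 libraries beside the points; circles are females and triangles males. Ramp1 is higher in 4 of 5 HSA-NRTN libraries than in any wild-type library, Ramp2 overlaps between the groups and Crcp lies at 19.996 to 56.3 CPM in HSA-NRTN pools, inside the wild-type range.

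Of the 5 members that passed the count filter, 0 passed an adjusted p of 0.05 for genotype in edgeR's quasi-likelihood test, where 0.0086% of 11630 genes did (1 gene). Whether Calca passed depended on the tool and on the filter. DESeq2 called 1 member, Calca, and 0.507% of all genes, whereas limma voom called 0 members and 0.0258% of all genes. In the authors' deposited table Calca was also the 1 member past that threshold, against 1.05% of 14778 genes with an adjusted p. At an unadjusted p under 0.05, 2 members were lower in HSA-NRTN pools, Calca and Calcb, against 2.42% of all genes, and 1 was higher, Ramp1, against 2.41%. The groups did not overlap for 1 tested member, Calca, against 0.602% of genes that lay lower without overlap, and 0 lay higher without overlap, against 0.645%. Since the members were chosen with this contrast known, nothing is read from these counts. By size of log2 fold change, 86 of 11630 genes lay below Calca, 164 below Ramp2 and 528 below Calcb, while 518 lay above Ramp1. In the authors' deposited table the moderated log2 fold changes were -1.42 for Calca, -1.05 for Ramp2, -0.80 for Calcb, 0.92 for Ramp1, 0.08 for Crcp, 0.09 for Calcrl and 0.23 for Ramp3.

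Sex was not used to choose the members and was tested with genotype in the model, over 6 females and 4 males. In edgeR 0 of 5 tested members passed, against 0.0086% of 11630 genes, and 1 of 5, Ramp2, had an unadjusted p under 0.05. DESeq2 and limma voom also called 0 of the 5. Ramp2 was at 15.2 ± 12.9 CPM in males (SD, n = 4) and 39.3 ± 31.2 CPM in females (SD, n = 6), a log2 fold change of -1.60 (SE 0.63) for which edgeR gave an adjusted p of 0.406. Its unadjusted p was 0.0228 in edgeR, and 6.42% of all genes were lower in males at an unadjusted p under 0.05. The difference was -0.46 (SE 0.46) with genes detected as the covariate.

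For the peptide genes the male minus female log2 difference was -0.03 for Calca, with a 95% interval of -0.79 to 0.72, and -0.42 for Calcb, with one of -1.12 to 0.27. That of Ramp1 was -0.04 (-0.94 to 0.86) and that of Crcp -0.27 (-1.31 to 0.77). The adjusted p of these 4 genes in edgeR's test lay between 0.655 and 0.982.

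**Figure D5:**
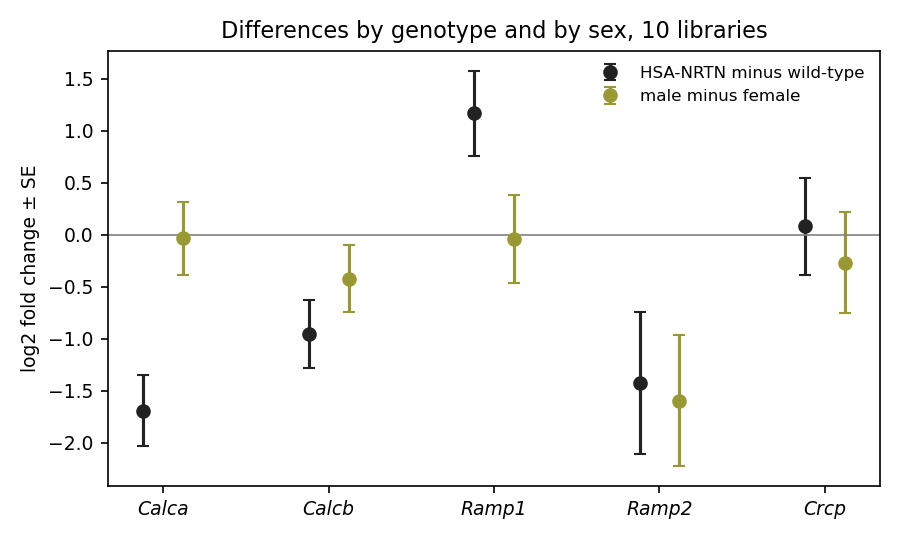
Log2 fold change ± SE of the 5 tested members by genotype (HSA-NRTN minus wild-type, black) and by sex (male minus female, olive) over 10 libraries. Calca, at -1.69 by genotype, is at -0.03 by sex, whereas Ramp2 is low in both, at -1.42 and -1.60.

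Whether the genotype difference itself differed between the sexes was tested as an interaction. Calca was at 4386 ± 1523 CPM in wild-type females and 939 ± 284 CPM in HSA-NRTN females (SD, n = 3 each). In males it was at 2915 and 2311 CPM in the wild-type and at 2089.6 and 783 CPM in the HSA-NRTN libraries, so both sexes had a lower HSA-NRTN level. The interaction was 1.36 (SE 0.61) on the log2 scale, a smaller difference in males, for which edgeR gave an unadjusted p of 0.0429 and an adjusted p of 0.922. In edgeR 0 of 5 members passed, against 0% of 11630 genes, and 1 of 5, Calca, had an unadjusted p under 0.05, against 5.14% of all genes. DESeq2 and limma voom likewise called 0 of the 5, while DESeq2 called 8 genes in all. Without HSA-NRTN replicate 1 the interaction of Calca was 0.42.

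Within the genotype groups the peptide genes tended to vary together. After removing group means from log2 CPM, Calca and Calcb had r = 0.67 (rho 0.75) over 10 libraries, and Calcb was rank 169 of 8159 genes for likeness to Calca. The 5th and 95th percentiles of r with Calca over these genes were -0.60 and 0.58. Calca had r = 0.61 with Crcp, 0.47 with Ramp2 and 0.26 with Ramp1, and Calcb had r = 0.66 with Ramp1. These values share libraries and depth and are given as descriptions.

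The genes most like Calca by this measure were Edf1, a transcriptional coactivator (r = 0.91), the zinc finger protein gene Zpr1 (0.89), the matrix protein gene Matn2 (0.89), Lman2l (0.87) and the plexin gene Plxna3 (0.87). The least like were Sparcl1, a secreted matrix protein gene (-0.95), Zfp407 (-0.93) and Tmcc3 (-0.93). For Calcb the highest were the ubiquitin gene Ubb (0.95), Eri3 (0.94) and Tmem29 (0.94). For Crcp they were the ephrin receptor gene Epha5 (0.97), Mdm2 (0.96) and Irak1bp1 (0.95).

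Markers of fast and slow motor neurons, picked with earlier results of these data known, were set beside Calca. The fast marker Chodl, also lower in HSA-NRTN pools at 593 ± 246.1 against 1814 ± 108 CPM (SD, n = 5 each), had r = -0.29 with Calca within groups. Of the other fast markers Mmp9 had r = -0.08 and Kcnq5 -0.23. Of the slow markers Esrrg had r = -0.78, rank 8086 of 8159, Esrrb -0.52, Sv2a -0.48 and Kcnn3 0.22. So within a genotype r with the fast markers lay between -0.29 and -0.08, and the r of Esrrg was near the low end over all genes.

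The wider CGRP pathway was described by lists, each with the number of members tested, and none of their members passed over all genes for genotype or sex in edgeR's test. Over all 11630 genes the median log2 fold change was -0.01 for genotype and -0.01 for sex. Of the calcitonin family relatives, adrenomedullin (Adm) had 55 counts over the wild-type and 64 over the HSA-NRTN group, and Adm2, Iapp and the calcitonin receptor gene Calcr had 0 counts in all 10 libraries.

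Genes that process and carry peptides went both ways by genotype. Of 20, 18 were tested, 7 with a positive and 11 with a negative log2 fold change (median -0.08). Cpe, the carboxypeptidase that trims peptide precursors, was at 934 ± 259.2 CPM in the HSA-NRTN and 945 ± 362 CPM in the wild-type group (SD, n = 5 each). Pam, which amidates CGRP, was at 271.3 ± 114 against 285 ± 151 CPM, and the convertase gene Pcsk2 at 133 ± 42.9 against 171 ± 54.3 CPM. These differences were smaller than the spread between libraries. The vesicle SNARE gene Vamp2 was at 57.8 ± 32.1 against 26.0 ± 11.1 CPM, and did not pass (edgeR adjusted p = 0.890). By sex 13 were higher and 5 lower in males (median 0.26), 4 and 1 of them at an unadjusted p under 0.05 against 4.77% and 6.42% of all genes. The granin Scg2 was at 233 ± 62.1 CPM in males (SD, n = 4) and 122 ± 42.7 CPM in females (SD, n = 6), with an adjusted p of 0.367 in edgeR.

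Of 24 genes of cAMP and PKA signalling, which the CGRP receptor drives, 22 were tested, 11 in each direction by genotype (median 0.01). The adenylyl cyclase gene Adcy5 was at 27.9 ± 8.15 CPM in the HSA-NRTN and 12.98 ± 7.17 CPM in the wild-type group (SD, n = 5 each; edgeR adjusted p = 0.981). The PKA regulatory subunit gene Prkar2b was at 78.1 ± 22.2 against 141 ± 74.6 CPM (0.913) and the CREB-binding protein gene Crebbp at 81.3 ± 13.5 against 124 ± 43.0 CPM (0.977). None of these passed. By sex 18 of 22 were higher in males (median 0.34), 2 of them, Prkar2a and Prkacb, at an unadjusted p under 0.05 against 4.77% of all genes.

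Of 4 peptidases that cleave CGRP, all were tested, 3 with a positive and 1 with a negative genotype difference (median 0.24). Insulin-degrading enzyme (Ide) was at 58.9 ± 12.0 CPM in the HSA-NRTN and 45.7 ± 13.4 CPM in the wild-type group (SD, n = 5 each). Of 12 RNA-binding proteins linked to the choice between calcitonin and CGRP exons, 11 were tested, 4 positive and 7 negative by genotype (median -0.14), with 0 at an unadjusted p under 0.05. By sex 10 of these 11 were higher in males (median 0.28), and 4 had an unadjusted p under 0.05 against 4.77% of all genes, namely Elavl3, Rbfox1, Elavl4 and Rbfox2. Rbfox1 was at 254 ± 48.0 CPM in males (SD, n = 4) and 157 ± 41.4 CPM in females (SD, n = 6; edgeR adjusted p = 0.368).

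Of 7 transcription factors known at the Calca promoter 5 were tested, 1 positive and 4 negative by genotype (median -0.04), and Usf2 was at 15.8 ± 8.77 against 16.1 ± 10.7 CPM. Of 17 subunits of RNA polymerase III, the partners of Crcp, all were tested, 4 positive and 13 negative by genotype (median -0.17). The subunit gene Polr3g was at 61.3 ± 24.9 CPM in the HSA-NRTN and 132 ± 46.1 CPM in the wild-type group (SD, n = 5 each; edgeR adjusted p = 0.502). By sex 15 of 17 were lower in males (median -0.54), 6 of them at an unadjusted p under 0.05 against 6.42% of all genes, among them Polr2h. Crcp, at -0.27 by sex, had the same sign as most of these subunits.

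The libraries held 1875971 to 6641695 gene counts, with 14090 to 19675 genes detected. HSA-NRTN replicate 2 and wild-type replicate 1 were the libraries least like the others, with a median r of 0.75 and 0.79 of log2 CPM against 0.83 to 0.88. Without both, the genotype log2 fold changes were -1.68 for Calca, -0.997 for Calcb, 0.99 for Ramp1, -1.39 for Ramp2 and -0.01 for Crcp. All 8 motor neuron markers had counts. Their sums were 18819 to 27569 CPM (median 27226) in the wild-type group and 13661 to 26776 CPM (median 18733) in the other. Within groups this sum had r = -0.42 with Calca and -0.67 with Calcb. Summed oligodendrocyte markers were at 219 to 695 CPM and 293 to 1531 CPM, and had r = -0.73 with Calca and -0.81 with Crcp within groups. Of 9 sensory neuron markers, examined because such neurons also hold Calca, 8 were at 0 in wild-type pools, Trpv1 and Scn10a among them, and Scn10a was among those at 0 in HSA-NRTN pools. The part of these markers in the results was not tested.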

How the data were processed

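Per the submitters' processing notes the tools were STAR 2.5.0a, HTSeq and DESeq2, and the build was GRCm38.p6. The authors deposited 1 file of raw counts a library, with 51912 genes, 92 spike-in sequences and 5 tally entries, the last of which stayed out of all totals with the spike-ins. Of all reads, 13.5% to 42.3% per library were counted to genes and 15.3% to 32.5% were not uniquely aligned. Smart-seq2 libraries do not mark strand. A deposited table gives a signal that the authors made by dividing counts by 1 DESeq2 size factor a library. The authors' deposited comparison gives log2 fold changes, p-values and a test statistic, taken here as a score.

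The filter was filterByExpr by genotype, which kept 11630 genes and 5 of the 7 members. After TMM scaling, edgeR 4.0.16 in R 4.3.3 gave quasi-likelihood F tests, for genotype without covariate, for sex with genotype, and for their interaction. Adjusted p-values are Benjamini-Hochberg values over all genes tested. Standard errors came from the F statistic. Lengths are exon unions of GENCODE M21 on GRCm38. Likeness is Pearson's r of log2 CPM (prior count 2) with group means removed, over genes with a conventional symbol and a mean of at least 10 CPM. The alternatives included DESeq2 1.42.0 and limma 3.58.1. The fit was tested on simulated data.

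The members and lists were chosen with earlier results of these data known. All 7 members were named whatever their values. List genes are those with an unadjusted p under 0.05, at most 4 a list and contrast. Some list genes are not reported here. For likeness, the 5 highest and 3 lowest with Calca and the 3 highest with Calcb and Crcp were named. Cpe, Pam, Pcsk2, Ide, Usf2, the relatives of CGRP and Vps25 were named for their roles or position, with values seen. Each library is 1 mouse.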

Additional observations from a re-analysis of the deposited data

Results flagged for a closer look

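In HSA-NRTN replicate 2 Ramp3 stood apart from the other libraries of its group, at 3.78 CPM against 0 to 0.740 CPM, with a gap of 0.804 of the whole range where 0.710 is the limit for 5 libraries. The value rests on 7 counts in the library of lowest depth. That library also had the highest summed markers of all 10 for pericytes and smooth muscle (78.9 CPM against 0.793 to 13.1 CPM), oligodendrocytes (1531 CPM), astrocytes (2026 CPM) and endothelial cells (67.6 CPM), and their part in the value was not tested. It was the 1 value apart in 15 groups of 5 examined. The limit is set so that chance alone sets apart about 1 group in 20 of normally distributed values. Counts this low, zeros among them, are not such values, and the groups share libraries, so that rate need not hold here.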

How the results depend on the processing

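The number of genes called for genotype, 1 in edgeR, was 81 on all genes with at least 1 count, 59 in DESeq2, 3 in limma voom, 5 with sex as a covariate and 10 with genes detected as the covariate (chosen after seeing the data). In edgeR it was 0 with the run of animal numbers as a covariate (706 at an unadjusted p under 0.05), 0 in females (566) and 0 in males (653). With 1 library left out it was 0 (without wild-type replicate 2, 570 unadjusted) to 13 (without HSA-NRTN replicate 3). For sex, 1 gene was called in edgeR (Xist), 315 on all genes with at least 1 count, 105 in DESeq2, 0 in limma voom (1206 at an unadjusted p under 0.05), and 1 to 176 with 1 library left out, the highest without wild-type replicate 1. For the interaction, 0 genes were called in edgeR (598 at an unadjusted p under 0.05), 35 on all genes with at least 1 count and 8 in DESeq2.

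Over 21 alternatives for genotype, Calca passed the threshold in 2, Ramp2 in 1 and the other members in 0. For Calca these were DESeq2 (59 of 11630 genes called) and edgeR on all genes with at least 1 count (81 of 26070). For Ramp2 it was edgeR with genes detected as the covariate (10 of 11630), chosen after seeing the data. Since the members were chosen with this contrast known, nothing is read from these calls. Of 105 genotype differences of members under alternatives, 104 moved by less than 1 SD of log2 CPM between replicates. For a gene that varies widely this is a loose limit. Ramp2 stayed within it while going from -1.42 to -2.76, so the count is no measure of stability. Calca ran from -2.20 to -0.87, the ends in females and in males. The direction of Calca, Calcb, Ramp1 and Ramp2 was kept under all 21 alternatives each, and Crcp ran from -0.19 to 0.61. Ramp2 was -0.84 with the run of animal numbers as a covariate and -2.76 with genes detected as the covariate.

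By sex, signs turned to 0.033 for Calca without the pair of libraries least like the rest, and with genes detected as the covariate to 0.28 for Calca, 0.089 for Ramp1 and 0.00017 for Crcp. With 1 library left out the sex difference ran from -0.59 to 0.18 for Calca, from -0.31 to 0.23 for Ramp1 and from -0.77 to 0.14 for Crcp. Over its 16 alternatives the interaction ran from 0.42 to 2.15 for Calca and from -0.15 to 1.36 for Calcb. It ran from -0.33 to 0.95 for Ramp1 and from -0.18 to 1.82 for Crcp, and that of Ramp2 was 0.16 without that pair. The adjusted p of Ramp2 by sex ran from 0.0505 to 0.877 over the 18 alternatives for sex. The cause was not tested. With the longest transcript in place of the exon union, Crcp over Ramp2 in wild-type was 0.785 in place of 1.65, so their order turned. The r of Calca with Calcb ran from 0.58 to 0.86 and the mean share of Calca from 80.8% to 83.6% in wild-type and from 68.8% to 73.5% in HSA-NRTN pools with 1 library left out. No paired analysis was possible because replicates were numbered by accession and a shared number ties no animals together. Depth limits Calcrl and Ramp3, with 77 and 13 counts in all.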
